A study of Mus musculus with 43 samples.

Results

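Avp, the gene for the vasopressin precursor, is 1 of the 10127 genes in the table analysed here and was taken as the row whose Ensembl identifier, ENSMUSG00000037727, belongs to it. It was read in 41 libraries from 12 adult male mice on a C57BL/6J background (C57/BL6 in the sample labels). All carried the Snord116 deletion on the paternal chromosome (Snord116+/-P). Mice had been fed ad libitum or fasted for 24 hours, and the paraventricular nucleus (PVN), arcuate nucleus (ARC), dorsomedial hypothalamus (DMH) and ventromedial hypothalamus (VMH) were cut from stained sections by laser capture. Fasted and fed mice gave 5 and 5 PVN, 4 and 5 ARC, 5 and 6 DMH, and 6 and 5 VMH libraries, each holding 1 nucleus of 1 mouse. Every library came from a deletion animal, so fasting and nucleus are compared within this genotype only; wild-type mice were not analysed here. The deletion is carried by every cell of the animal, and Snord116 itself was not analysed here. A library is named by its nucleus and mouse, as in PVN-86.

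Vasopressin is made by large neurons of the PVN and supraoptic nucleus that release it from the posterior pituitary into the blood, where it makes the kidney retain water and constricts vessels. Smaller PVN neurons that make corticotropin-releasing hormone can make vasopressin as well and use it to drive the pituitary-adrenal axis, and neurons of the suprachiasmatic nucleus make it in a daily rhythm. The precursor is cut in secretory granules into vasopressin, its carrier neurophysin and a glycopeptide.

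In the GRCm38 assembly Avp lies on the minus strand at chr2:130580620-130582554 and has 3 exons of 145, 202 and 230 bases. Its neighbour Oxt, the oxytocin gene, lies 3565 bases away and was not analysed here, and no annotated gene overlaps Avp. Of the 528 windows of 50 bases in the Avp transcript, 78 (14.8%) are also found in the Oxt transcript, so some reads could be assigned to either gene. The 250 bases before the RefSeq start of Avp (GRCm38.p6, chr2:130582589-130582838, minus strand, written 5′ to 3′) are shown as the sequence next to that start. The RefSeq start lies 34 bases upstream of the start in the coordinates given above, and positions are counted from the RefSeq start. Capitals mark matches to short motifs.

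Avp promoter: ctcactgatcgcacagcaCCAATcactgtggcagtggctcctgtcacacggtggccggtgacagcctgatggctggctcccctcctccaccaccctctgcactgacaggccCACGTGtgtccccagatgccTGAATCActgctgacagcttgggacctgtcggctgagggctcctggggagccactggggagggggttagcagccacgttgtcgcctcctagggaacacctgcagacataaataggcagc

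The window was searched on both strands for 4 motifs, none of which overlap here. The E-box CACGTG was found at -139 from the start and is in 6.02% of 32851 promoter windows of this length. The AP-1-like pattern TGANTCA, with any base in the middle, was found at -119 as TGAATCA and is in 6.75% of the windows. Whether a protein binds it was not tested. CCAAT was found at -232 and is in 33.8% of them. The cyclic AMP response element TGACGTCA, in 1.55% of windows, had no match, which says only that these letters are not in this window.

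Libraries held between 1.94 M and 8.23 M reads, and those of the PVN between 2.62 M and 7.26 M. The captures were checked against markers of each nucleus. Npy, an ARC peptide gene, was at 195 to 1226 CPM (read counts scaled to the size of the library) in ARC and at 1.63 to 9.93 CPM in PVN libraries. The summed level of Npvf, Hcrt and Pmch, peptide genes of the DMH and its border, was 261 to 867 CPM in DMH and 0.567 to 5.31 CPM in PVN libraries. The summed level of Fezf1, Gpr149 and Sox14 was 276 to 366 CPM in VMH and 6.66 to 22.1 CPM in PVN libraries. Crh, the corticotropin-releasing hormone gene, was at 14.5 to 126 CPM in PVN and at most 6.40 CPM in any other library. In captured tissue, fewer vasopressin neurons and less Avp RNA in each of them cannot be told apart.

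Avp was high in every PVN library and was read from 0 to 44 times in libraries of the other nuclei. In the PVN it ranged from 395 CPM in PVN-308 to 1475 CPM in PVN-86 with a median of 692 CPM, which rests on 1712 to 7799 Avp reads per library. In the ARC the lowest value was 1.27, the median 2.22 and the highest 10.0 CPM, or 3 to 44 reads. In the VMH the median was 1.90 CPM and the highest 2.76 CPM, with 0 reads in VMH-311, where the limit of 3 reads lies at 1.55 CPM. In the DMH the lowest value was 0.385, the median 1.45 and the highest 3.77 CPM, or 2 to 15 reads. The lowest PVN library was 39.4-fold above the highest library of any other nucleus, so the PVN did not overlap with them. Avp has long been known as a PVN gene, so these differences are given as a description with no test.

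Within a mouse the contrast was as wide. PVN over ARC of the same animal ranged from 56.3-fold, for PVN-127 over ARC-127, to 987-fold over 9 mice, the latter resting on 3 reads in ARC-111 (95% exact counting interval 338 to 4788). PVN over DMH ranged from 174-fold to 1467-fold over 10 mice, the latter resting on 2 reads in DMH-127 (95% exact counting interval 406 to 12120). PVN over VMH ranged from 159-fold to 685-fold over 9 mice. PVN-311 was, against VMH-311 with no Avp read, at least 367-fold higher against a floor of 3 reads in that library. On the log2(CPM + 0.5) scale and with the mouse as a block, the PVN exceeded ARC by 7.66 ± 0.36 (SE), DMH by 8.52 ± 0.34 and VMH by 8.44 ± 0.34. The pseudocount of 0.5 understates differences that involve the low nuclei.

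**Figure D1:**
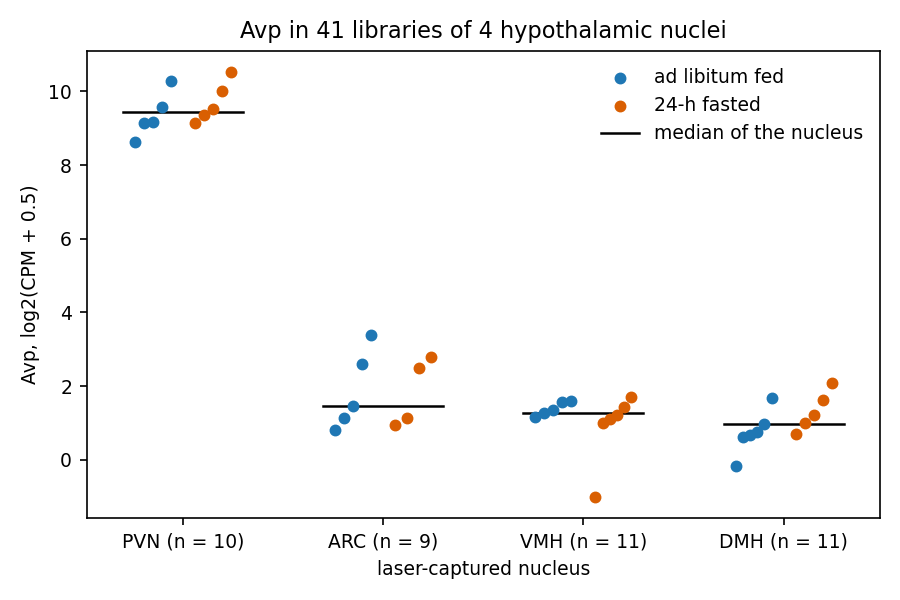
Each point is 1 library; the vertical axis is Avp as log2(CPM + 0.5), the columns are the nuclei, blue is ad libitum fed, orange is fasted and the line is the median of the nucleus. The 10 PVN libraries, at 395 to 1475 CPM, lie above all libraries of ARC, VMH and DMH, whose highest value is 10.0 CPM.

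Below the PVN, the order of the medians was ARC, VMH, DMH. ARC exceeded DMH by 0.86 ± 0.36 on the log2 scale (95% interval 0.14 to 1.57; adjusted p = 0.110, limma) and VMH by 0.78 ± 0.36 (95% interval 0.06 to 1.50; adjusted p = 0.110, limma), which misses the threshold of 0.1. Among all 10121 genes tested, 18% passed between ARC and DMH and 30.2% between ARC and VMH. VMH and DMH differed by 0.08 ± 0.34 (95% interval -0.61 to 0.77; adjusted p = 0.916, limma), where 22.5% of genes passed. ARC held the spread: ARC-127 at 10.0, ARC-311 at 6.44, ARC-308 at 5.60 and ARC-86 at 5.17 CPM lay above every DMH and VMH library, while the other 5 ARC libraries lay among them. Without ARC-127 the ARC excess over DMH was 0.60, and with array weights the adjusted p of the 0.86 excess was 0.0760 (limma). The ARC excess over VMH was 0.49 without VMH-311, the library with 0 reads, and 0.98 (adjusted p = 0.0403, limma) without ARC-111, and without the mouse as a block it was 0.77 (adjusted p = 0.0776, limma). Both excesses thus lie close to the threshold, on either side of it by setting.

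Whether the few Avp reads outside the PVN went with the PVN level of the same mouse was compared in 3 nuclei. Pearson's r was -0.41 with ARC (9 mice, exact permutation p = 0.260, adjusted 0.538), 0.22 with DMH (10 mice, permutation p = 0.538, adjusted 0.538) and 0.22 with VMH (10 mice, permutation p = 0.528, adjusted 0.538). Spearman's rho was -0.68 (exact permutation p = 0.0503, adjusted 0.151), 0.31 (permutation p = 0.386, adjusted 0.534) and 0.22 (permutation p = 0.534, adjusted 0.534). Without the 2 mice farthest from the median of the PVN values r was -0.68, 0.07 and -0.03, and centred on batch it was -0.61, 0.53 and -0.19. No relation passed, and the sign in VMH changed.

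The fasting comparison asked whether 24 hours without food changed Avp in each nucleus. In the PVN the fasted libraries held 1475 CPM in PVN-86, 1029 in PVN-100, 730 in PVN-101, 654 in PVN-305 and 568 in PVN-311. The fed libraries held 1249 CPM in PVN-111, 759 in PVN-125, 580 in PVN-313, 565 in PVN-127 and 395 in PVN-308. The means were 891 ± 370 (SD, n = 5) fasted and 710 ± 328 (SD, n = 5) fed, and the groups overlapped over most of their range. With batch in the fit, Avp was 0.35 ± 0.12 (SE) higher on the log2 scale in fasted mice, or 1.27-fold with a 95% interval of 1.07 to 1.51, with an unadjusted p of 0.00841 and an adjusted p of 0.310 in limma. It did not pass, as 35 of 9529 genes did (0.367%), and it stood at rank 257 by p.

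The difference had the same sign within each batch. It was 0.24 in batch 1 (1 fasted, 1 fed library), 0.40 in batch 2 (2 and 2) and 0.35 in batch 3 (2 and 2). An exact permutation of the states within batches gave p = 0.111 (2-sided, 72 arrangements, smallest possible 0.0278). Without batch in the fit the adjusted p was 0.905.

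In the other nuclei the fasting change of Avp rested on few reads and its intervals were wide. In ARC the fasted mean was 3.68 ± 2.51 CPM (SD, n = 4) and the fed mean 4.16 ± 3.70 CPM (SD, n = 5), a log2 change of -0.05 (95% interval -1.43 to 1.33; adjusted p = 0.989, limma; 0.176% of genes passed). In DMH they were 2.16 ± 1.05 (n = 5) and 1.31 ± 0.777 CPM (n = 6), a change of 0.63 (95% interval -0.55 to 1.80; adjusted p = 0.890, limma; 0.0103% of genes passed). In VMH they were 1.66 ± 0.927 (n = 6) and 2.14 ± 0.354 CPM (n = 5), a change of -0.56 (95% interval -1.78 to 0.66; adjusted p = 0.925, limma; 0.0208% of genes passed). The fasted groups overlapped with the fed groups in all 3 nuclei. The VMH value leaned on VMH-311 with 0 reads, and was -0.12 without it. In ARC the change turned to 0.52 without ARC-100, and leaving out ARC-86 gave -0.56.

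The fasting change of Avp was not shown to differ between nuclei. The F-test of nucleus by state with the mouse as a block gave F = 1.17 (adjusted p = 0.940, limma), and 0 of 10121 genes passed it (0%), with 563 (5.56%) at an unadjusted p under 0.05. The PVN change exceeded that of ARC by 0.37 ± 0.71, that of VMH by 0.93 ± 0.68 and that of DMH by -0.27 ± 0.68 (SE, log2). The sign of the first turned without ARC-127 (-0.11), and that of the last without DMH-127 (0.043) and with a pseudocount of 2 (0.00385).

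The spread of Avp between PVN libraries followed batch more closely than nutritional state. Each of the 3 batches, which covered both tissue capture and library making, held fasted and fed mice. The batch 1 libraries were at 1249 and 1475 CPM, those of batch 2 at 565 to 1029 CPM and those of batch 3 at 395 to 654 CPM. The means were 1362, 771 ± 192 (SD, n = 4) and 549 ± 109 CPM (SD, n = 4), and both batch 1 libraries lay above the other 8. Batch accounted for 77.1% of the variance of log2 Avp in the PVN. The F-test of batch in the fasting fit, which was chosen after the values were seen, gave F = 33.8 (adjusted p = 0.000294, limma), where 1052 of 9529 genes (11%) passed. The log2 level was 0.85 lower in batch 2 and 1.33 lower in batch 3 than in batch 1. The SD of log2 Avp over the PVN libraries fell from 0.58 to 0.26 when batch and state were taken out. In ARC, Avp was at 1.27 to 5.17, 1.43 to 10.0 and 1.69 to 6.44 CPM in batches 1, 2 and 3, which overlapped, as they did in DMH. In VMH the batch 1 libraries, at 2.04 to 2.76 CPM, lay above those of batch 2, at 1.50 to 1.90 CPM, and overlapped with those of batch 3.

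**Figure D2:**
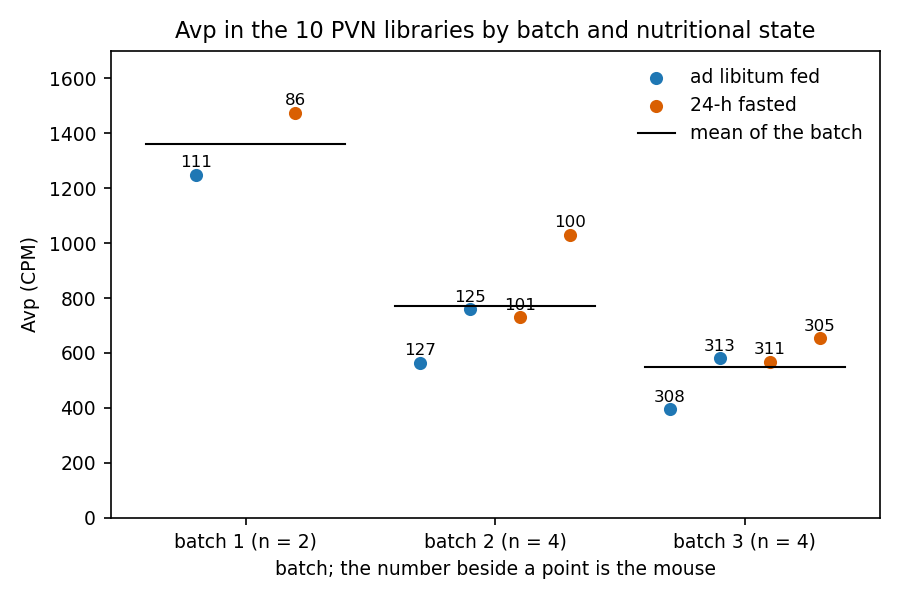
Avp in CPM in each PVN library, by batch, with the mouse number above each point; blue is fed, orange is fasted and the line is the mean of the batch. The batch means are 1362, 771 and 549 CPM, and in each batch the highest point is a fasted mouse.

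Markers of other cells were summed in the PVN libraries of each batch. The summed level of 4 astrocyte markers (Aldh1l1, Gja1, Agt and Fgfr3; 4 of 8 measured) was 283 to 403 CPM in the batch 1 PVN libraries, 176 to 266 in batch 2 and 200 to 255 in batch 3, with none of them at 0. The 5 microglia markers measured of 8 summed to 85.6 to 90.0, 58.5 to 87.7 and 55.4 to 72.8 CPM. Cx3cr1 among them was at 10.2 and 16.3 CPM in batch 1 and at 22.8 to 39.9 CPM in batch 2. In batch 3 it was at 15.9 to 38.5 CPM, which overlapped with batch 1. The 6 endothelial markers measured of 8 summed to 246 to 348, 238 to 306 and 226 to 281 CPM, and the 2 neuron markers measured of 8 to 463 to 476, 473 to 544 and 478 to 539 CPM. The 6 oligodendrocyte markers measured of 8 summed to 569 to 621, 350 to 502 and 383 to 572 CPM, and Foxj1, the 1 ependymal marker measured of 8, was at 5.67 to 13.3, 0 to 4.32 and 0.476 to 6.11 CPM. Of these 6 lists only the astrocyte sum was higher in batch 1 than in both other batches without overlap. Of the 4 astrocyte markers taken singly, only Fgfr3 was. It was at 55.2 and 71.8 CPM in batch 1 and at most 51.0 CPM in batches 2 and 3. In PVN-111, Aldh1l1 was at 18.5 and Agt at 84.8 CPM, below the 22.2 and 108.3 CPM of PVN-101. Gja1 was at 102.9 CPM in PVN-86, below the 107.5 CPM of PVN-308. The 3 VMH markers measured of 5 summed to 16.3 to 22.1, 7.85 to 17.4 and 6.66 to 15.7 CPM, and Sox14 was at 0 in 8 of the 10 PVN libraries. Of the suprachiasmatic list 3 of 9 genes were measured, among which Prok2, a gene of that nucleus, was at 14.2 CPM in PVN-86 and at 0 to 2.61 CPM in the other PVN libraries. The other members did not go with it, since Rorb was at 102 CPM in PVN-86 within a PVN range of 102 to 165 CPM and Prokr2 at 23.4 CPM within 14.6 to 43.7 CPM. The summed list was 117 to 202 CPM in the PVN, below the 232 to 445 CPM of the DMH. Between the states, the astrocyte sum was 200 to 403 CPM in fasted and 176 to 283 CPM in fed PVN libraries. The part of these cell types in the Avp values was not tested.

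Genes that rose and fell with Avp from 1 PVN library to the next were ranked by Pearson's r on log2(CPM + 0.5), as a measure of likeness. The 8 highest among genes that averaged 5 CPM or more in the PVN were Slc26a2 (a sulfate transporter, r = 0.96), Tmsb10 (an actin-binding thymosin, 0.95), Ripor1 (0.95), Gna11 (a G protein subunit of receptors that include V1-type vasopressin receptors, 0.95), Hsbp1 (a binding partner of heat shock factor, 0.94), C1qtnf4 (0.94), A230050P20Rik (0.94) and Pcsk1n (0.93). The 4 lowest were Srsf3, a splicing factor (-0.97), Matr3, a nuclear RNA-binding protein (-0.97), Upf2, a factor of nonsense-mediated decay (-0.96) and Atp6v1h, a subunit of the vesicular proton pump (-0.95). Pcsk1n, whose product proSAAS inhibits a protease that cuts prohormones, was the only member of the vasopressin system list described further on that was among them. It was at 397 and 462 CPM in the batch 1 PVN libraries, at 228 to 294 in batch 2 and at 133 to 225 in batch 3. Matr3 ran the other way, at 173 and 192, 258 to 362 and 313.4 to 451 CPM. The Matr3 batches 2 and 3 overlapped and batch 1 stood below both.

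After batch and state were taken out, r fell to 0.34 for Pcsk1n and to 0.46 for C1qtnf4. It was 0.84 for Gna11, 0.82 for A230050P20Rik, -0.84 for Srsf3, -0.83 for Matr3 and -0.81 for Atp6v1h. For these genes a slope on Avp with batch and state had unadjusted p from 0.0296 (Matr3) to 0.238 (Gna11) in limma. None passed after adjustment. The genes were chosen by their r in these same libraries, so all their r and rho values are descriptions and no separate check. Spearman's rho over the 10 libraries was -0.99 for Srsf3, -0.98 for Matr3 and 0.98 for A230050P20Rik. Without the 2 libraries farthest from the Avp median, PVN-86 and PVN-111, r was -0.92, -0.97 and 0.93 for these 3 genes. Pcsk1n and Matr3 had the same order of batch means in nuclei with almost no Avp. Pcsk1n averaged 434, 328 and 243 CPM in batches 1, 2 and 3 of ARC, 340, 238 and 170 CPM in DMH and 401, 272 and 185 CPM in VMH. Matr3 averaged 254, 340 and 364 CPM in ARC, 281, 325 and 378 in DMH and 274, 351 and 409 in VMH. Gna11 and Srsf3 kept their PVN order in 2 of these 3 nuclei each. Gna11 was at 113, 115 and 87.7 CPM in DMH, and Srsf3 at 160, 203 and 198 CPM in ARC.

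**Figure D3:**
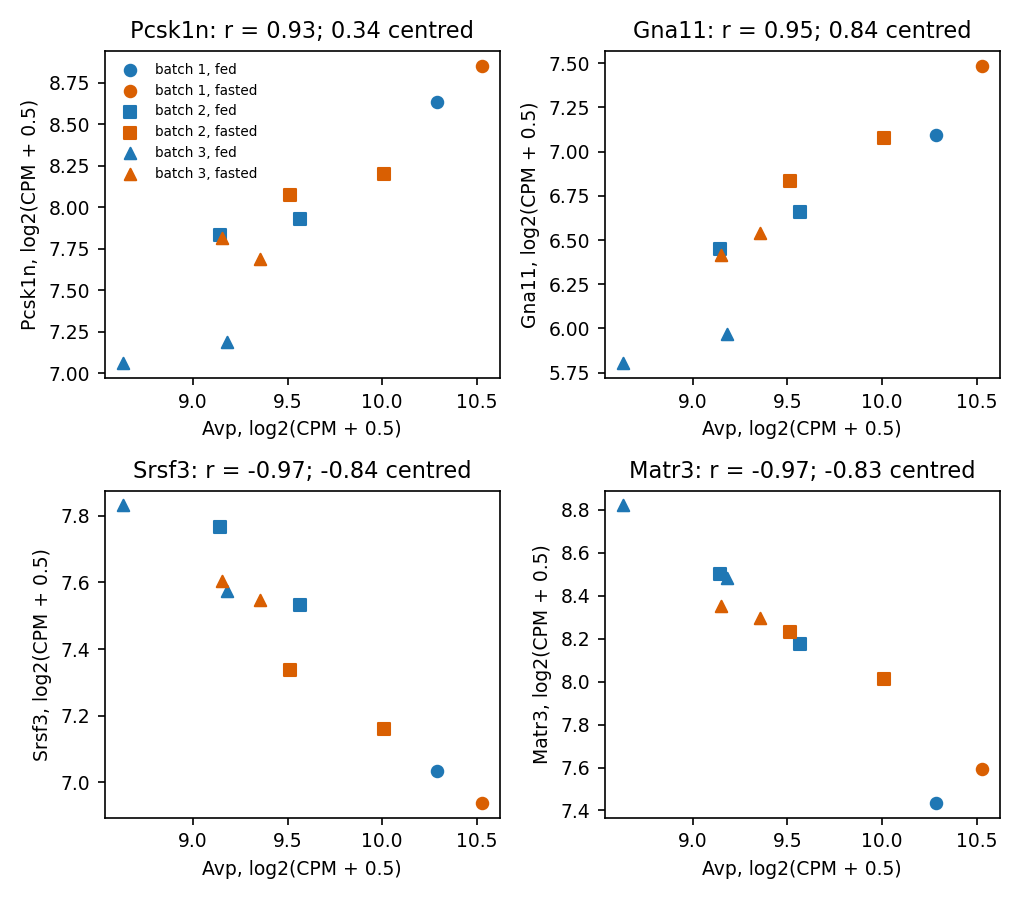
Log2(CPM + 0.5) of Pcsk1n, Gna11, Srsf3 and Matr3 against that of Avp in the 10 PVN libraries; the shape gives the batch and the colour the state, and each title gives Pearson's r as it is and after centring on batch and state. Pcsk1n goes from r = 0.93 to 0.34, Gna11 from 0.95 to 0.84, Srsf3 from -0.97 to -0.84 and Matr3 from -0.97 to -0.83.

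Over all 9528 other genes, 460 (4.83%) had an r above 0.8 in size with Avp. There were 186 (1.95%) after batch and state were taken out and 154 (1.62%) without PVN-86 and PVN-111. Centring and fewer libraries make a large r more likely without any relation, so these counts are not on 1 scale. The count to be had without any relation was not computed, so they do not show that genes follow Avp. The count rests on single libraries, at 291 without PVN-86, 762 without PVN-100 and 778 without PVN-125. A permutation test of the libraries, which ignores batch, passed 436 genes by r and 5 by rho at an adjusted p under 0.1. A slope on Avp fitted in limma with neither batch nor state passed 938 genes (9.84%), 471 of them with a positive slope. Of these, 719 were also among the 1052 genes of the batch F-test, or 76.7% of the slope genes and 68.3% of the batch genes. With batch and state in the fit 0 genes passed (0%), the smallest adjusted p was 1.00, and 237 (2.49%) had an unadjusted p under 0.05. The smallest p values belonged to Spata2l, with a slope of 3.12 ± 0.86 (SE; unadjusted p = 0.00210), and Zfp61, with a slope of -3.09 ± 0.76 (unadjusted p = 0.000772). Only the spread left within batches, 0.26 on the log2 scale for Avp, could inform this fit.

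**Figure D4:**
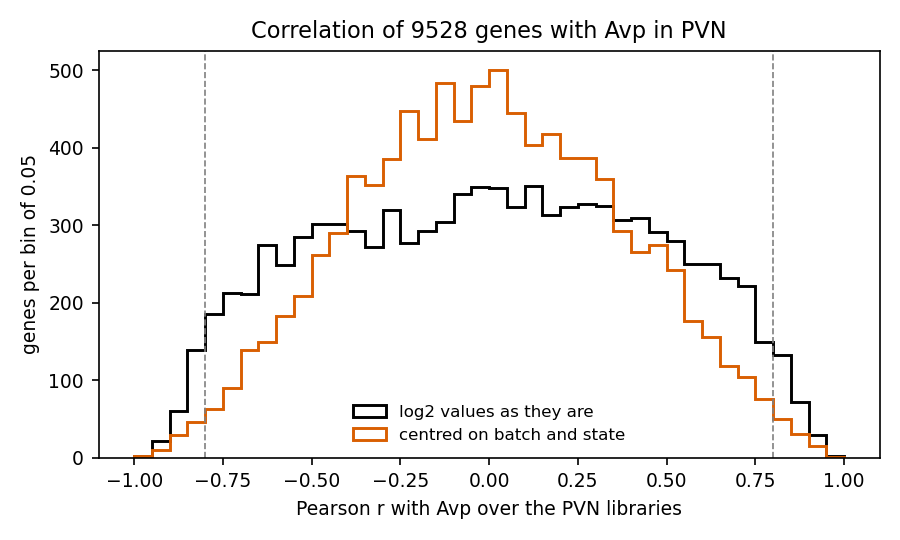
Number of genes per bin of Pearson's r with Avp over the 10 PVN libraries, for log2 values as they are (black) and centred on batch and state (orange); dashed lines mark 0.8 in size. With centring the count beyond the lines goes from 460 to 186 genes.

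The likeness to Avp was also set against base composition, as a description. Median GC content of the transcript was 55.3% in the 200 genes with the highest r, 43.5% in the 200 with the lowest and 49.1% over 9326 genes with a value (97.9%). The Avp transcript itself has 65.7% GC. Across genes, which are not independent replicates, r with Avp correlated with GC at 0.40, and after batch and state were taken out at -0.14. The batch 3 minus batch 1 difference of a gene correlated with GC at -0.35.

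Over all 41 libraries, the 5 genes whose pattern was most like that of Avp were Tns1, which links actin to adhesion sites (r = 0.94), Ucn3, the urocortin 3 peptide gene (0.93), Uncx, a homeobox factor (0.91), Rufy4 (0.88) and Crh (0.88). These values mainly reflect PVN against the rest, since the libraries fall into these 2 clusters, and no test is given. Tns1 was at 354 to 1004 CPM in the PVN and at 30.5 to 86.4 CPM elsewhere. Ucn3 was at 7.37 to 37.4 against 0 to 1.87 CPM, and Uncx at 7.00 to 37.8 against 0.244 to 3.98 CPM. In 4 of the 5 every PVN library lay above every other library, as it did in 0.257% of the 10121 genes. Rufy4, at 4.83 to 79.4 against 0 to 5.64 CPM, was the exception. The 5 genes were picked for a pattern like that of Avp, so this separation follows largely from the choice and is no finding. Within the PVN the likeness to Avp was 0.74 for Tns1, 0.63 for Crh, 0.47 for Rufy4, 0.03 for Uncx and -0.03 for Ucn3, and centred on batch and state it was between -0.12 and 0.25 for all 5. Tns1 and Rufy4 are neighbours on chromosome 1. Tns1 rose with fasting in the PVN by 0.55 on the log2 scale (adjusted p = 0.0832, limma), a call that was lost with a pseudocount of 0.1 (adjusted p = 0.105), without batch (adjusted p = 0.728) and in 8 of 10 omissions of a library.

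Other genes of the vasopressin system were taken from a list of 67, of which 29 were measured, Avp among them. Of the 28 others, 11 were PVN-enriched, meaning an adjusted p under 0.1 in limma and a log2 difference of at least 1 from the mean of the other nuclei. Over all 10121 genes 3.12% were. The median log2 difference was 0.58 in the list and -0.01 over all genes. The list holds genes known from the PVN, so its share is no independent finding.

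Transcription and mRNA control genes made up 8 of these 11. Pou3f2, a POU factor needed for the development of vasopressin and oxytocin neurons, was at 37.2 to 133 CPM in the PVN and at most 25.8 CPM elsewhere, a log2 difference of 3.76 ± 0.19 (SE). Fosl2, a Fos family protein, was at 104 to 156 CPM in the PVN and at most 65.2 CPM elsewhere, a difference of 2.39 ± 0.21. Caprin2, which binds Avp mRNA and affects its poly(A) tail, was at 52.3 to 99.2 CPM against at most 38.4 CPM, a difference of 1.78 ± 0.21. None of these 3 genes overlapped between the PVN and the other libraries, and Crh was the only other list member without overlap, 4 of 28 (14.3%) against 0.257% of all genes. Sim2 (1.69), Rasd1 (1.43), Junb (1.16), Egr1 (1.15) and Jun (1.00) were enriched with overlap, and Jun stands at the boundary of 1 log2 unit. Junb lost its call with a pseudocount of 0.1 (adjusted p = 0.117, limma). With a pseudocount of 2, Sim2 (0.94), Junb (0.97) and Jun (0.96) fell under 1 and the list had 8 enriched members.

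Among the peptide and PVN neuron genes 3 of 5 were enriched. Crh exceeded the other nuclei by 5.15 ± 0.30 on the log2 scale. Penk, the enkephalin precursor, was at 129 to 252 CPM in the PVN and 30.8 to 163 CPM elsewhere (1.13), and Nos1, the neuronal nitric oxide synthase, at 135 to 229 and 36.3 to 155 CPM (1.04). None of 7 granule and processing genes reached a difference of 1. Scg2 and Cpe, a granin and the carboxypeptidase that trims prohormones, were higher in the PVN by 0.66 ± 0.05 and 0.51 ± 0.05, and Vgf by 0.84 ± 0.15. Wfs1, an endoplasmic reticulum protein, was lower, at -0.77 ± 0.06. None of 6 clock genes was enriched. Among them Per3 (-0.59 ± 0.09) and Dbp (-0.98 ± 0.26) were lower in the PVN without reaching a difference of 1. Oxtr, the oxytocin receptor and the only receptor of the list measured, was PVN-depleted, at 0.189 to 12.5 CPM in the PVN with a median of 4.99 CPM, against medians of 10.4 CPM in DMH, 20.52 CPM in ARC and 43.7 CPM in VMH. The PVN range overlapped with those of DMH and ARC and lay below the lowest VMH library, at 16.8 CPM. Its difference was -1.93 ± 0.28, and 3.47% of all genes were depleted, or 6.59% called in either direction.

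**Figure D5:**
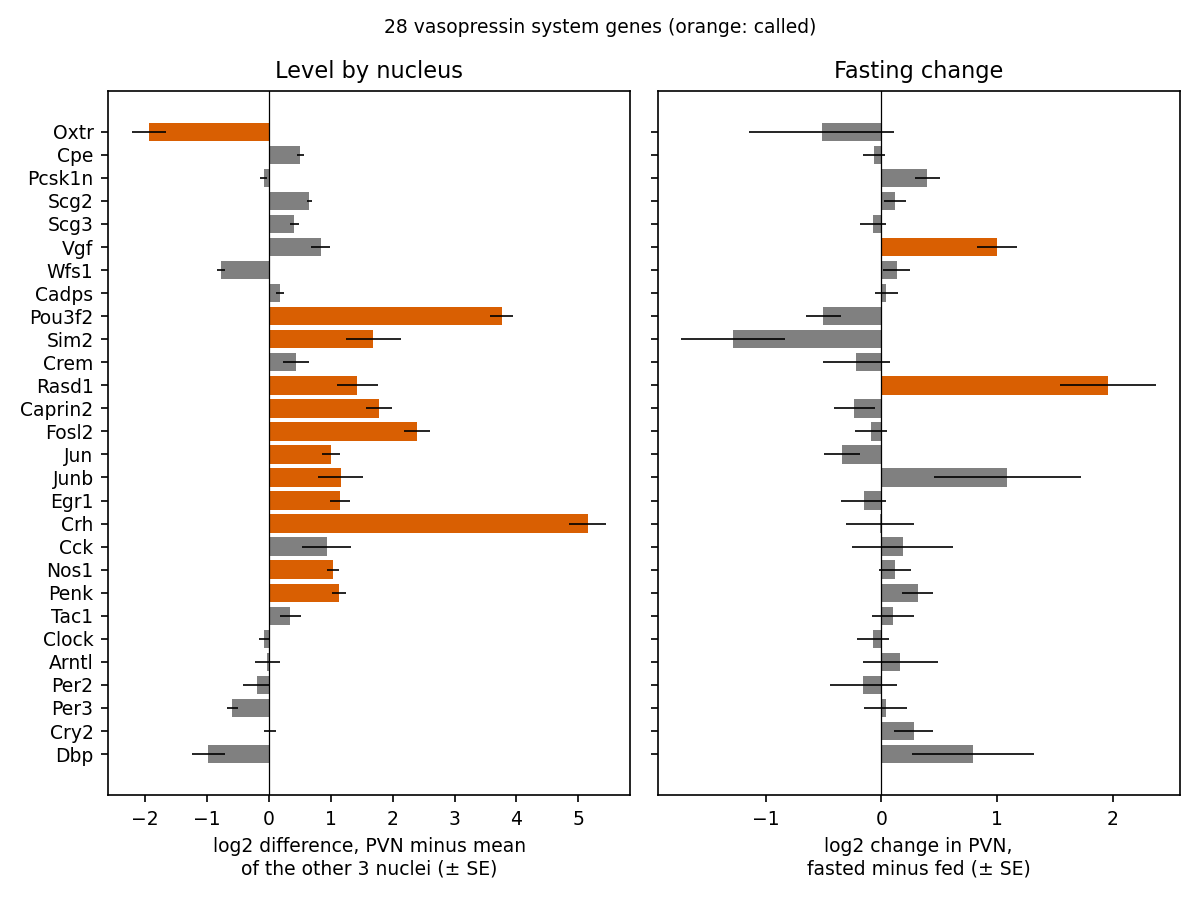
The 28 genes of the vasopressin system list other than Avp, with the log2 difference of the PVN from the mean of the other nuclei on the left and the fasting change in the PVN on the right; bars are estimates, lines are ± SE, and orange marks genes called. On the left 11 genes are enriched and Oxtr is depleted; on the right Vgf and Rasd1 are called.

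Fasting moved 2 of the 28 list members in the PVN, both upward, where 0.304% of all genes rose and 0.063% fell. The list was chosen with earlier results of these data known, so its share is no independent finding. Vgf, whose product is a granule protein cut into several peptides, was at 383, 132, 111.3, 105 and 74.1 CPM in the fasted PVN libraries and at 111.4, 80.1, 68.6, 52.3 and 42.3 CPM in the fed. The ranges overlapped in the middle, and PVN-86 stood alone at the top. The change was 1.00 ± 0.17 on the log2 scale (adjusted p = 0.0248, limma), and it was 1.78, 0.71 and 0.90 within batches 1, 2 and 3. Without PVN-86 it was 0.81. Rasd1, a glucocorticoid-induced Ras-like protein that acts on Avp transcription, was at 58.0, 20.4, 16.2, 15.2 and 8.02 CPM fasted and at 7.16, 5.16, 4.76, 4.28 and 2.29 CPM fed, with no overlap between the groups. Its change was 1.96 ± 0.41 (adjusted p = 0.0637, limma), and within batches 3.37, 2.15 and 1.07. The Rasd1 call was lost in most omissions of a library and without batch in the fit (adjusted p = 0.538, limma). The count rests on few animals. It was 0 without PVN-100, 2 without PVN-305 or PVN-308 and 1 without any of the other 7 libraries, and it was 0 without batch in the fit.

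The remaining 26 members did not pass. Pcsk1n changed by 0.40 ± 0.11 (adjusted p = 0.197, limma; 0.0637 with array weights, where the list count was 3), Pou3f2 by -0.50 ± 0.15 (adjusted p = 0.253, limma) and Crh by -0.01 ± 0.29 (adjusted p = 0.998, limma). The Crh value averaged changes of 1.66, -0.08 and -0.77 within batches 1, 2 and 3, and was -0.42 without PVN-86. Clock genes lay between -0.15 and 0.79. Across the PVN libraries the r of the 28 members with Avp ran from -0.80 for Cpe to 0.93 for Pcsk1n, and Vgf had 0.82, which was -0.17 after batch and state were taken out. At an unadjusted p under 0.05 there were 7 of 28 members, against 950 of 9529 genes (9.97%), and the median change was 0.04 in the list and 0.01 over all genes. In the batch F-test, 11 of the 28 members passed (39.3%, against 11% of all genes). Pcsk1n (adjusted p = 0.000124, limma) and Vgf (adjusted p = 0.00107, limma) fell from batch 1 to batch 3 like Avp. Pou3f2 and Cpe were higher in batches 2 and 3 (adjusted p = 0.00706 and 0.00303, limma). Because of how the list was chosen, its shares here are no independent findings either.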

How the data were processed

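RNA was sequenced from 41 laser-captured libraries of 4 hypothalamic nuclei from 12 mice. The work fell into 3 batches, from capture to library, and RNA was amplified before the libraries were made. The authors deposited CPM per Ensembl gene. The processing notes of the authors name CASAVA 1.7, TopHat2 2.0.11, Cufflinks 2.2.1, edgeR and limma with GRCm38. The counting program and the use of strand are not given in the sources used here. The study removed outlier libraries before deposit, which can lower the spread between replicates. The table held 10127 genes and none of the 6725 annotated between ENSMUSG00000000861 and ENSMUSG00000028747, so Oxt and the receptors Avpr1a and Avpr1b were not analysed here. The table has 2 further columns whose names fit none of the labelled samples, which were left out. Their names give the ARC, mouse 85 (fasted) in the first and 92 (fed) in the other, while the labels list PVN samples of these mice in the same states, which were not analysed here, so their nucleus is uncertain.

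Depth was read from the value of 1 read in each library, of which 96.6% to 97.9% of low values were whole multiples (tolerance 0.05 of a read). Because 101 genes held positive values under 0.01 CPM in some library, no count test was run. Limits from 3 reads cover counting error only, and reads of amplified RNA are not independent molecules.

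Tests used limma 3.58.1 in R 4.3.3 (eBayes with trend) on log2(CPM + 0.5), over genes that reached 1 CPM in at least the smaller group's number of libraries, with Benjamini-Hochberg adjustment over all genes kept and a threshold of 0.1, 2-sided. Fasting was tested within a nucleus with batch as a covariate. Comparisons between nuclei had the mouse as a block, because same-numbered libraries come from the same animal; mice 85 and 92, each with 1 library, then carry no information. Deviations from group means correlated at a median of 0.07 within a mouse, 0.05 between mice of a batch and -0.02 between batches (9610 genes). The slope on Avp had batch and state as covariates. Correlations used 100000 permutations, or exact enumeration below 10 mice. The fits were also run on simulated counts with a fixed dispersion and no batch effect added. That run does not show how the fits behave under the batch differences seen here.

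Named genes were Avp, the vasopressin list, the 8 highest and 4 lowest r with Avp in the PVN, the 5 highest r over all libraries (each at a mean of 5 CPM or more), and the leading slope genes. The members and lists were chosen with earlier results of these data known. Alternatives were pseudocounts 0.1 and 2, no filter and 5 CPM, median-of-ratios rescaling, array weights, no batch, no block, exact permutation, Spearman's rho, centring, and leaving out each library. Symbols and coordinates come from GENCODE M21 and the promoter from RefSeq.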

Additional observations from a re-analysis of the deposited data

Results flagged for a closer look

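In groups of 4 to 6 libraries, the highest or lowest value was set against the range of its group by Dixon's ratio at 95%. This was done in the PVN for Avp, the vasopressin list and the other genes named by their likeness to or slope on Avp, and for Avp in the other nuclei, 98 groups in all. In these, 14 values stood apart, where chance gives about 1 in 20 groups. The groups are not independent of each other or of batch, and genes chosen for their likeness to Avp, which was highest in PVN-86 and PVN-111, are among them, so the number is given as a count only. No Avp value did so in any of its 8 groups. All 14 came from the batch 1 PVN libraries, 8 from PVN-86 and 6 from PVN-111.

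Among fasted PVN libraries, PVN-86 held 383 CPM of Vgf against 74.1 to 132 CPM in the others, and 126 CPM of Crh against 14.5 to 26.3 CPM. It held 58.0 CPM of Rasd1 against 8.02 to 20.4 CPM, and 79.4 CPM of Rufy4 against 12.2 to 20.4 CPM. It held 3028 CPM of Scg2 against 1694 to 1975 CPM, and 39.3 CPM of the clock gene Per2 against 11.8 to 17.6 CPM. It also held 69.2 CPM of Jun against 45.2 to 50.7 CPM, and 8.32 CPM of Sim2 against 1.06 to 1.96 CPM.

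Among fed PVN libraries, PVN-111 was low for Pou3f2, at 79.9 CPM against 126 to 133 CPM. It was high for Sim2, at 28.8 CPM against 2.38 to 5.34 CPM, and for Uncx, at 37.8 CPM against 10.7 to 16.1 CPM. Cck, the cholecystokinin gene, was at 40.2 CPM against 4.04 to 8.26 CPM. Tmsb10 was at 117 CPM against 44.7 to 61.9 CPM, and C1qtnf4 at 29.1 CPM against 4.27 to 8.57 CPM. Each state has 1 PVN library from batch 1, so what belongs to the batch and what to the animal cannot be told apart.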

How the results depend on the processing

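Avp outside the PVN rests on 0 to 44 reads per library, which limits every comparison among the other nuclei, and batch 1 has 2 PVN libraries. Of 223 tests under other settings 210 kept their call and, where they have one, their direction, as did 870 of 919 with 1 library left out. Of 44 counts of genes, 37 stayed within 1.5 times the value reported, which does not say that the genes were the same. The cause of the exceptions was not tested.

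With a pseudocount of 2 the Avp level of the PVN exceeded the other nuclei by 7.48, DMH by 7.69 and VMH by 7.63 on the log2 scale, since a larger pseudocount raises the low levels. The fasting change of Crh was then 0.00580, and that of Avp in the PVN minus DMH 0.00385. With a pseudocount of 0.1, VMH minus DMH was -0.018. Without the replicate block of mouse, ARC minus DMH was 0.87 (adjusted p = 0.0624, limma) and ARC minus VMH 0.77 (adjusted p = 0.0776, limma), both past the threshold, as was ARC minus DMH with array weights at 0.86. No other call on Avp changed without the block. Without batch in the fit, 0 list members passed for fasting and 827 genes had a slope on Avp that passed, and 938 with neither batch nor state. Genes with r over 0.8 in size numbered 215 by rho and 186 after centring, where Vgf had r = -0.17. Centred on batch, the same-mouse r of VMH was -0.19.

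Leaving out 1 library at a time, the fasting change of Avp in the PVN ranged from 0.26 to 0.43 and its adjusted p from 0.271 to 0.604 (limma); over the other settings the adjusted p ranged from 0.137 to 0.905. It ranged from -0.56 (without ARC-86) to 0.52 (without ARC-100) in ARC. The count of list members called ranged from 0 to 2, and the change of Crh from -0.42 (without PVN-86) to 0.20. ARC minus DMH ranged from 0.60 (without ARC-127) to 1.06 (adjusted p 0.0433 to 0.298, limma), ARC minus VMH from 0.49 (without VMH-311) to 0.98 (adjusted p 0.0403 to 0.306, limma), and VMH minus DMH from -0.10 to 0.35. The fasting change of the PVN exceeded that of ARC by -0.11 to 0.92 and that of DMH by -0.55 to 0.043. Genes with r over 0.8 in size numbered 291 (without PVN-86) to 778 (without PVN-125). Rasd1 and Tns1 each lost the fasting call in 8 of 10 omissions, and Vgf in 1. At 5 CPM Avp was not tested in DMH and VMH.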
